A study of Mus musculus with 30 samples.

Results

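The whole eye of mice that lack the period gene Per3 was compared with that of wild-type (WT) littermates over the genome outside the end of chromosome 4, the region around Per3 itself. All whole-eye arrays were taken, 14 of the 30 arrays of the series, and every probe except the 206 probes (149 genes) that lie on chromosome 4 beyond 148.47 Mb of mouse assembly mm9. This left 40968 of 41174 probes, with 27953 gene names. The Per3-/- group held 7 mice (replicates 2 to 8) and the WT group 7 mice (replicates 1 and 3 to 8), with 1 array per mouse. WT replicate 2 and Per3-/- replicate 1 were not analysed here. All mice were adult males on a C57Bl/6J background, and all had lived through 17 cycles of 3.5 h of light and 3.5 h of darkness before they were killed in the second hour of the last light period. The groups thus shared sex, schedule and sampling time and differed in the Per3 genotype alone as labelled. The deletion is present in every cell from conception, and an array averages every tissue of the globe and what was left attached to it, so that fewer cells of a type and less RNA per cell cannot be told apart.

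Per3 encodes one of the period proteins, which in the circadian clock bind the cryptochromes and enter the loop that represses the activators CLOCK and BMAL1. Period 3 is regarded as a weaker repressor than its paralogues, and mice without it keep a behavioural rhythm. The eye holds a clock of its own in the retina, and rods, cones and the melanopsin ganglion cells pass light to that clock and to the brain. The light schedule was used because light suppresses running less in Per3-/- mice, and the arrays ask which transcripts differ in their eyes under it.

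Levels below are the log2 of an array's processed spot intensity minus the log2 of that array's 75th percentile, so that a level of 0 is the 75th percentile, and differences are Per3-/- minus WT on the log2 scale. Levels of different probes cannot be set against each other. The 75th percentile lay between 1243 and 1615 intensity units in WT arrays and between 1131 and 1644 in Per3-/- arrays. Between 72.6% and 80.7% of probes were well above background on a WT array and between 71.4% and 79.6% on a Per3-/- array, and no spot was saturated. A probe was taken as measured where all arrays of 1 genotype, or of both, showed it well above background, which held for 29065 of the 40968 probes and 19628 genes. Differences were tested with limma, with the slide as a block, and adjusted by Benjamini-Hochberg over all 41174 probes.

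The tissue label was borne out by the marker genes. In WT mice all 14 measured rod genes, 11 of 11 cone genes, 15 of 15 lens crystallins and 16 of 16 genes of the corneal and conjunctival epithelium were higher in the eye than in the hypothalamus, by medians of 10.8, 6.72, 12.4 and 8.12. The 8 myelin genes were lower in the eye by a median of 3.56 and 1 of them was higher, and 18 of 19 genes of skeletal muscle were higher by a median of 8.49, so markers of muscle were present in the dissected eyes. The Per3 probe, which lies in the region set aside, checked the labels in part. Its mean level was -3.13 ± 0.39 (SD, n = 7) in WT eyes and -3.58 ± 0.52 (SD, n = 7) in Per3-/- eyes, a difference of -0.45 with a standard error of 0.09. It was lower in Per3-/- mice on each of the 4 slides, by 0.61, 0.57, 0.37 and 0.33, and 4 of the 7 Per3-/- arrays lay below every WT array. Where this probe lies relative to the deleted part of the gene is not given in the sources used here.

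The arrays differed by slide more than by genotype. For the median probe 31.9% of the variance went with the slide, 2.23% with genotype within slides and 61.5% was residual. The slide takes more terms in the fit than genotype does, so its share would be larger even without any effect. Correlations between arrays had a median of 0.988 within a genotype and 0.989 between genotypes. Per3-/- replicate 2, which shares slide 1 with WT replicate 1 alone, stood apart. Its mean level over 10 genes of liver plasma proteins, such as albumin (Alb), was 3.25, while the other 13 arrays lay at or below 0.40. On the same slide WT replicate 1 had the highest level of 8 myelin genes, 2.22, against -0.43 in Per3-/- replicate 2. WT replicate 4 had the lowest level of the gland genes (-0.63) and, of all arrays, the lowest of the muscle genes (4.02) and the adipose genes (-0.60). With the slide as a block, leaving out either array of slide 1 leaves the other with no information on genotype, so several counts are given below also without slide 1.

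Outside the end of chromosome 4 few differences between the genotypes were detected in the eye, and nearly all were small. Of 40968 probes, 1 passed an adjusted p of 0.05 in limma (0.00244%), and 1125 were at an unadjusted p under 0.05 (2.75%). Without the 5 probes on unplaced sequence of chromosome 4 and the probes that carry no position but belong to a gene of the region, 0 of 40961 probes passed the adjusted test in limma, and 1121 were at an unadjusted p under 0.05. The median absolute difference of the measured probes was 0.06, a 1.04-fold change, the 95th percentile was 0.25 (1.19-fold) and the 99th was 0.44 (1.36-fold). The distribution of these differences was centred near 0, with 353 measured probes higher and 370 lower at an unadjusted p under 0.05. More than 2-fold differences were found for 11 measured probes (0.0378%), 8 of them higher in Per3-/- eyes and 3 lower, and 65 were higher and 42 lower by more than 1.5-fold. The 2-fold count was 8 to 28 when 1 array was left out, 28 of them without WT replicate 8, 26 without WT replicate 6 and 19 without slide 1. Of the 11, Reg3g, Cyp1a1, Cxcl17, Vmn2r8 and Vmn2r89 were well above background on all arrays of the genotype with the higher level alone, so the split by direction rests in part on that filter.

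**Figure D1:**
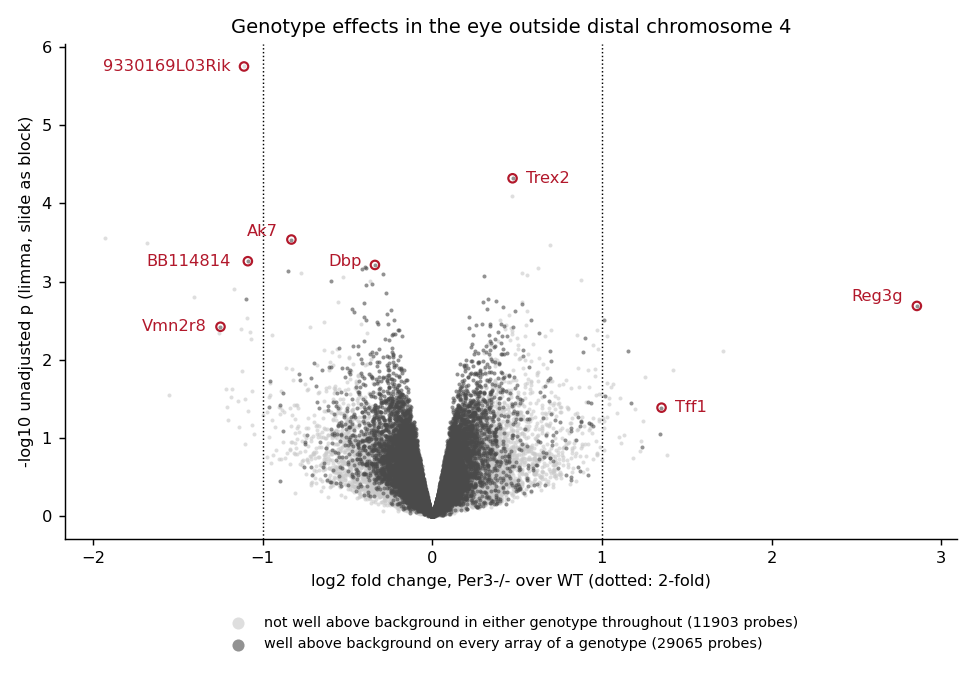
Difference between Per3-/- and WT eyes (x axis, log2) against the -log10 of the unadjusted p from limma (y axis) for the probes outside the end of chromosome 4. Dark points are the 29065 measured probes, light points the 11903 others, dotted lines mark 2-fold and circles mark named genes. Measured probes crowd around 0, 11 of them lie past 2-fold, and 9330169L03Rik, a light point, is the 1 probe past an adjusted p of 0.05.

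The smallness of these differences was itself measured with fair precision. The median standard error of a measured probe was 0.09 and the median 95% interval reached 0.20 to either side, which is 1.15-fold. For 26714 of the 29065 measured probes (91.9%) the whole interval lay within 1.5-fold in either direction, and for 28600 (98.4%) within 2-fold. The median absolute difference was 0.09 in the dimmest of 4 equal bins of measured probes and 0.04 in the brightest. The region set aside was unlike the rest, since 44 of its 180 measured probes (24.4%) were at an unadjusted p under 0.05 and 8 passed the adjusted test. Elsewhere the share by chromosome ran from 1.79% on chromosome 16 to 3.50% on chromosome 19.

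The probe that passed the adjusted test measured the transcript 9330169L03Rik and lies on a piece of chromosome 4 without a placed position in mm9 (positions 133561 to 133620 of that piece). Its levels ran from -7.54 over a median of -7.26 to -6.71 in WT eyes and from -8.71 over -8.33 to -7.85 in Per3-/- eyes. The groups did not overlap, yet the probe was well above background on 0 of 14 eye arrays. The difference was -1.11 with a standard error of 0.12 (adjusted p = 0.011 in limma), and with the normexp background correction it turned to 0.22. No fold is given, since neither genotype was well above background on any array. A second probe of this transcript gave -1.41 and was well above background on 1 WT array.

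Trex2, a 3'-5' DNA exonuclease known from keratinocytes, had the lowest p of all measured probes (probe at chrX:70679837-70679896, mm9). Its level ran from -3.62 over -3.15 to -3.00 in WT eyes and from -3.07 over -2.87 to -2.51 in Per3-/- eyes, and 6 of 7 Per3-/- arrays lay above every WT array. The difference was 0.47 with a standard error of 0.07, or 0.45, 0.62, 0.33 and 0.48 on the 4 slides, and did not pass the adjusted test (adjusted p = 0.163 in limma). In the hypothalamus the Trex2 difference was 0.02.

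The measured probes of lowest p that carry a gene name were next taken, 10 higher and 10 lower in Per3-/- eyes. None of them passed the adjusted test in limma, and each was at an unadjusted p under 0.05 by the rule itself.

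Among those lower in Per3-/- eyes, Ak7, an adenylate kinase of motile cilia, separated the groups fully (probe at chr12:107020535-107020594, mm9). Its level ran from -3.81 over -3.62 to -3.35 in WT and from -5.22 over -4.39 to -3.87 in Per3-/- eyes, a difference of -0.83 with a standard error of 0.16. A second Ak7 probe gave -0.95 and a further one -0.04, neither of them measured on all arrays of a genotype. Dtl, the subunit that directs the CUL4 ubiquitin ligase to replication proteins, also separated the groups, with -2.30 over -2.15 to -1.95 in WT and -2.70 over -2.45 to -2.35 in Per3-/- eyes. BB114814, a transcript without a gene name, did so too, at -1.09, past 2-fold. Over all measured genes, 6 separated the groups with Per3-/- lower (0.0306%) and 1 with Per3-/- higher (0.00509%). With this many genes some separate by chance alone, and whether these counts exceed that was not tested.

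St6galnac5, which adds sialic acid to gangliosides, was lower by 0.41 and 0.40 at its 2 overlapping probes, and by 0.02 at both in the hypothalamus. Col19a1, the chain of collagen XIX, was lower by 0.60 and the replication helicase gene Mcm2 by 0.29. Lpar2, a receptor for lysophosphatidic acid (-0.39), Trim61 (-0.85) and Nobox, an oocyte transcription factor (-0.35), were lower with the processed signal, and with normexp their differences were 0.07, 0.02 and 0.26, the opposite sign. The probes of Trim61 and Nobox were well above background on 7 WT arrays and on 5 and 6 Per3-/- arrays. Both genes thus counted as measured through the WT arrays alone. Dbp completed the lower set and is described with the clock genes.

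Of the genes higher in Per3-/- eyes, Reg3g, a secreted lectin that kills Gram-positive bacteria, differed most (probe at chr6:78416420-78416479, mm9). Its level ran from -8.60 over -6.55 to -2.52 in WT and from -5.31 over -2.27 to -0.78 in Per3-/- eyes, and the probe was well above background on 3 of 7 WT arrays and on 7 of 7 Per3-/- arrays. The groups overlapped, with 4 of 7 Per3-/- arrays above every WT array. The difference was 2.86 with a standard error of 0.71, against a WT mean that holds 4 arrays not well above background, and on the slides it was 3.29, 3.71, 3.96 and 0.68. The LIM protein gene Crip1 was higher by 0.30 at both of its probes. Slc6a2, the noradrenaline transporter of sympathetic nerve endings, was higher by 0.53, the macrophage scavenger receptor Msr1 by 0.33, Depdc1b by 0.38 and the membrane dipeptidase Dpep1 by 0.32. The inhibitory myeloid receptor Cd300a was higher by 0.42 at the probe that the rule chose and by 0.08 at another, and Dnajc5b by 0.49 and -0.00.

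**Figure D2:**
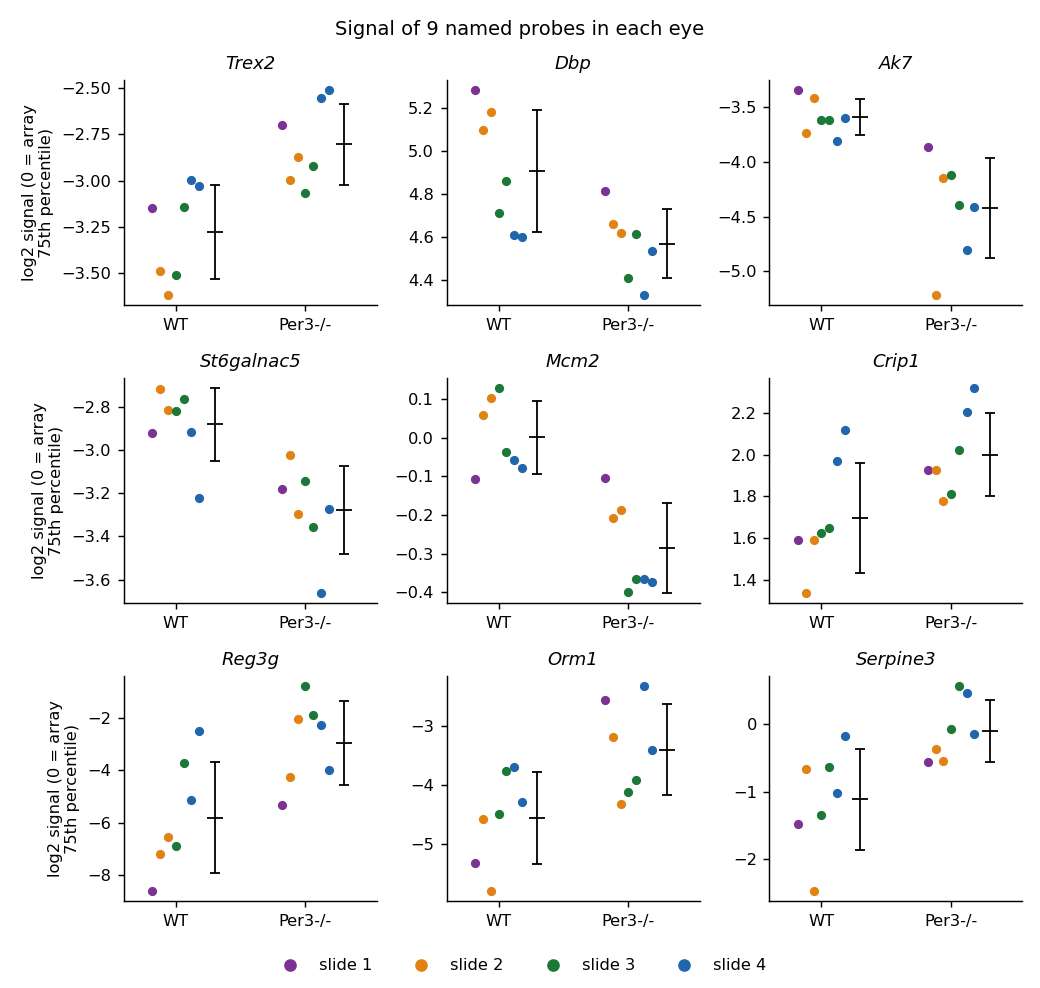
Level on each eye array (y axis, log2 relative to the array's 75th percentile) for 9 named probes, by genotype. Points are mice, their colour is the slide, and bars are the mean ± SD (n = 7). Ak7 does not overlap between genotypes, while the other 8 probes do, with 6 of 7 Per3-/- arrays above every WT array for Trex2.

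The largest fold changes were mostly not the best supported ones. After Reg3g, the measured genes with the largest higher values were Tff1 (1.35), a mucus-associated trefoil peptide, Gp2 (1.34), a glycoprotein of secretory granules, Cxcl17 (1.24), a chemokine of mucous surfaces, Ces1f (1.17) and the acute phase protein gene Orm1 (1.16), followed by Cyp1a1, Serpine3, Cyp2e1 and Kcne3 at 0.93 to 1.02. Tff1, Gp2, Cxcl17 and Kcne3 had the opposite sign on slide 4, at -1.25, -2.08, -1.99 and -1.15. Serpine3, a serpin, was higher on each slide, by 0.91, 1.11, 1.24 and 0.76, and ran from -2.47 over -1.02 to -0.17 in WT and from -0.57 over -0.15 to 0.56 in Per3-/- eyes. Orm1 ran from -5.80 over -4.50 to -3.69 in WT and from -4.33 over -3.41 to -2.33 in Per3-/- eyes, with 2.77 of difference on slide 1 and 0.11 on slide 3. Both genes thus overlapped between genotypes.

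On the lower side, the largest values were those of Vmn2r8 (-1.25) and Vmn2r89 (-1.10), receptors of a large vomeronasal family whose probes may measure other members, and both were well above background on 7 WT and 3 Per3-/- arrays. Another Vmn2r89 probe, well above background on all 14 arrays, was at -0.18. With normexp Vmn2r8 was at 0.06, the opposite sign. BB114814, Fbxl12os, Stk32c, Trim61, Ak7, Hsf2bp and Avpr1b lay between -1.09 and -0.74. Of these, Fbxl12os, Trim61, Hsf2bp and Avpr1b were well above background on 7 WT arrays and on 5, 5, 6 and 5 Per3-/- arrays. Like the 2 vomeronasal probes, they counted as measured through the WT arrays alone, so their place here rests in part on that filter. Exosc1 (-0.90) ran from -0.87 to 4.17 among WT arrays alone, and its 3 other probes were at 0.01 to 0.06. The myelin gene Mbp (-0.75) was lower by 4.57 on slide 1, and without slide 1 the difference was -0.12. AK085794, well above background on 4 WT arrays and on 0 Per3-/- arrays, was at least 1.03-fold higher in WT by its bound, with measured means of -6.23 and -8.16.

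The cell types and pathways of the eye were then described with 46 lists of genes, which hold 662 genes. Of these 654 had a probe and 619 were measured. At an unadjusted p under 0.05, 30 genes (4.85%) were higher in Per3-/- eyes and 11 (1.78%) lower, against 1.23% and 1.27% of all 19628 measured genes. None of the 619 passed the adjusted test in limma, with a lowest adjusted p of 0.926. The lists were chosen with earlier results of these data known, so these shares are not independent evidence of a direction. Reg3g and Cyp1a1, which lie among the 30, counted as measured through the Per3-/- arrays alone, and Reg3g has the largest difference. The 30 higher genes differed by 0.19 to 2.86 and 25 of them were higher on all 4 slides, and the 11 lower ones differed by 0.18 to 0.40 in size and 6 were lower on all 4. Without slide 1, 17 of the 30 and 7 of the 11 were still at an unadjusted p under 0.05. For 523 of the 619 genes (84.5%) the 95% interval lay within 1.5-fold.

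**Figure D3:**
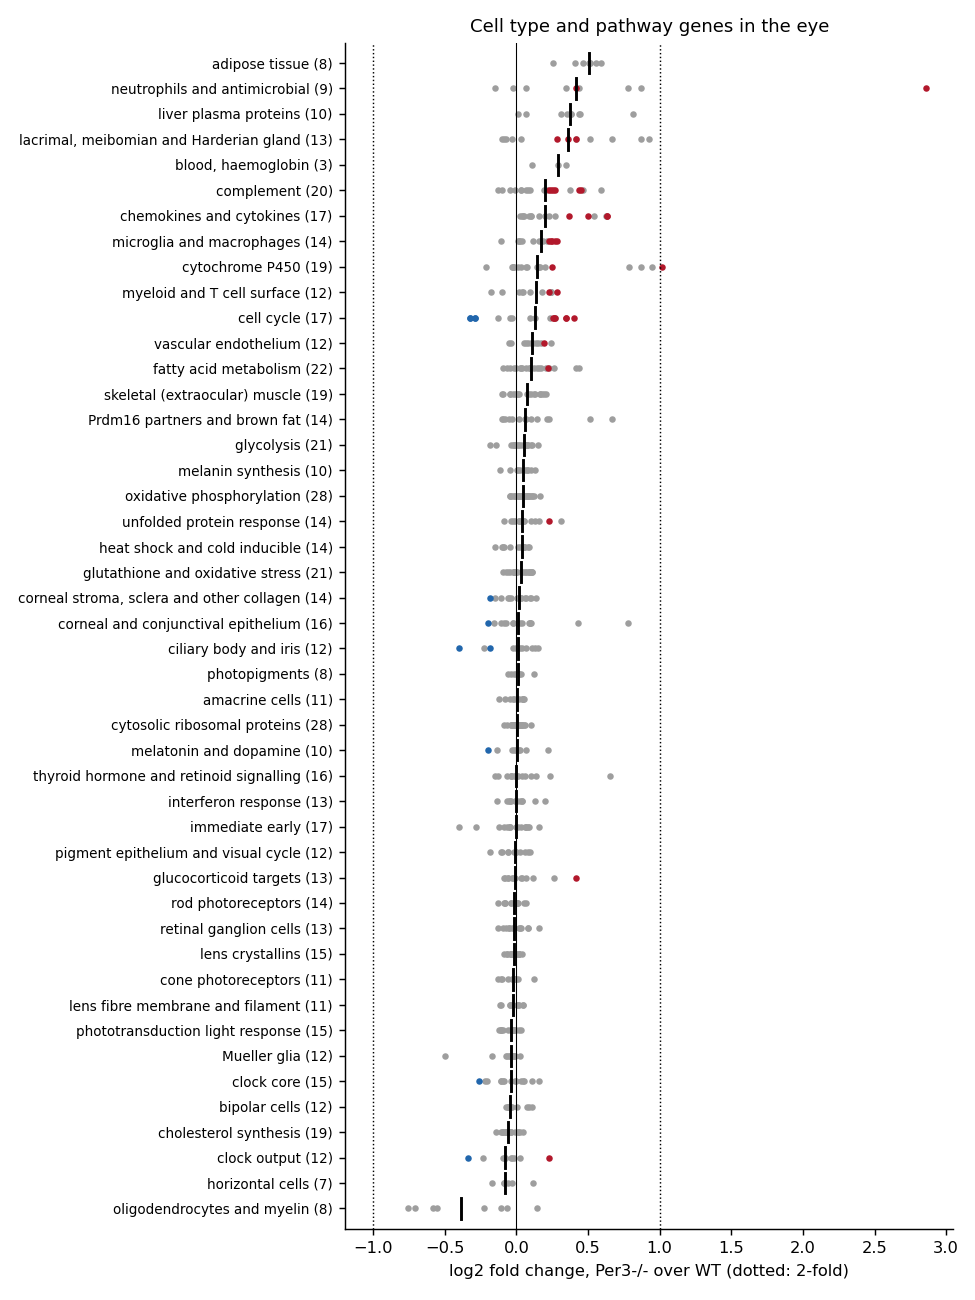
Difference between Per3-/- and WT eyes (x axis, log2) of each measured gene, by list (y axis). Points are genes, red (higher) or blue (lower) where the unadjusted p from limma was under 0.05, the black bar is the list's median, the number measured is in brackets and dotted lines mark 2-fold. List medians run from -0.39 (myelin) to 0.51 (adipose tissue), and the points of the retina and lens lists lie close to 0.

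No difference was detected in the neural retina. For rods, 0 of 14 measured genes were at an unadjusted p under 0.05 and the median was -0.01. The rod transcription factor gene Nrl was at -0.08 (-0.25 to 0.10). The interval of all 14 rod genes lay within 1.5-fold. The same held for all 11 cone genes, with the short-wave opsin Opn1sw at 0.12 (-0.07 to 0.31) and the middle-wave opsin Opn1mw within an interval of -0.24 to 0.24, and again 0 genes were at an unadjusted p under 0.05 in limma.

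Nor was one detected in second-order and output neurons. All 12 bipolar genes, all 11 amacrine genes and all 13 ganglion cell genes had intervals within 1.5-fold, and 0 of them were at an unadjusted p under 0.05. Of 7 horizontal cell genes 6 had such an interval and 0 were at an unadjusted p under 0.05, with 6 of 7 below 0 and a median of -0.08, which with normexp was 0.05, and the wider interval was that of the connexin gene Gja10 (-0.17). Grm6, the glutamate receptor of ON bipolar cells, was at 0.09 (-0.13 to 0.30), Th, the rate-limiting enzyme of dopamine synthesis, at -0.02 (-0.28 to 0.24), and melanopsin (Opn4), the pigment of light-sensing ganglion cells, at -0.02 (-0.17 to 0.14). Of 12 genes of Mueller glia, 11 had such an interval. The exception was Gfap, the filament that marks reactive glia, at -0.50 (-1.33 to 0.33). Among 15 genes of the phototransduction cascade and its recovery, and among 8 pigment genes, 0 were at an unadjusted p under 0.05.

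Genes of pigment epithelium, melanin synthesis and lens also had narrow intervals around 0. Rpe65, the isomerase of the visual cycle, was at -0.06 (-0.23 to 0.12), and all 12 genes of its list and all 10 melanin genes lay within 1.5-fold by their intervals. Tyr, the first enzyme of melanin synthesis, was at -0.12 (-0.36 to 0.12), and at 0.24 with normexp. For the 15 crystallins, the structural proteins of the lens, the interval of every gene lay within 2-fold and that of 14 within 1.5-fold. Cryaa ran from 8.49 over 8.75 to 8.86 in WT and from 8.48 over 8.66 to 8.89 in Per3-/- eyes, with an interval of -0.17 to 0.17. All 11 genes of lens fibre membranes and filaments also lay within 1.5-fold. No gene of these lists was at an unadjusted p under 0.05 in limma.

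In the front of the eye and its wall few genes differed. In corneal and conjunctival epithelium, 1 of 16 genes was lower at an unadjusted p under 0.05, the basal keratin Krt5 (-0.20, interval -0.37 to -0.02), and Krt12, the keratin of the cornea, was at -0.16 (-0.32 to 0.00). Krt5 ran from 7.67 over 7.88 to 8.15 in WT and from 7.55 over 7.64 to 7.85 in Per3-/- eyes, and without slide 1 its difference was -0.16 with an unadjusted p of 0.087. Of 14 collagen and stroma genes, 1 was lower, Col8a1 of Descemet's membrane (-0.19). Of 12 genes of ciliary body and iris, 2 were lower, the transcription factor gene Zic2 (-0.40) and the natriuretic peptide clearance receptor gene Npr3 (-0.18). Without slide 1 these 3 were at unadjusted p of 0.096, 0.077 and 0.14. In the endothelium 1 of 12 genes was higher, Emcn, a mucin-like protein of capillaries and veins (0.19, with 6 of 7 Per3-/- arrays above every WT array). The count in the endothelium was 3 without slide 1, where the list's median was 0.19 against 0.11, and 0 without WT replicate 4 or WT replicate 8.

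Genes of muscle, liver plasma proteins, myelin and fat varied widely between arrays, and where the signal of the liver genes came from was not tested. All 19 muscle genes had an unadjusted p above 0.05, with a median of 0.07. The 10 liver genes all lay above 0, with a median of 0.38, of which slide 1 alone gave 5.06, and without slide 1 the median was -0.41. The 8 myelin genes had a median of -0.39, with -3.00 on slide 1 and 0.02 without it. The 8 adipose genes also all lay above 0, with a median of 0.51 that was 0.79 without slide 1 and 0.18 without WT replicate 4. None of these liver, myelin and adipose genes was at an unadjusted p under 0.05 in limma.

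**Figure D4:**
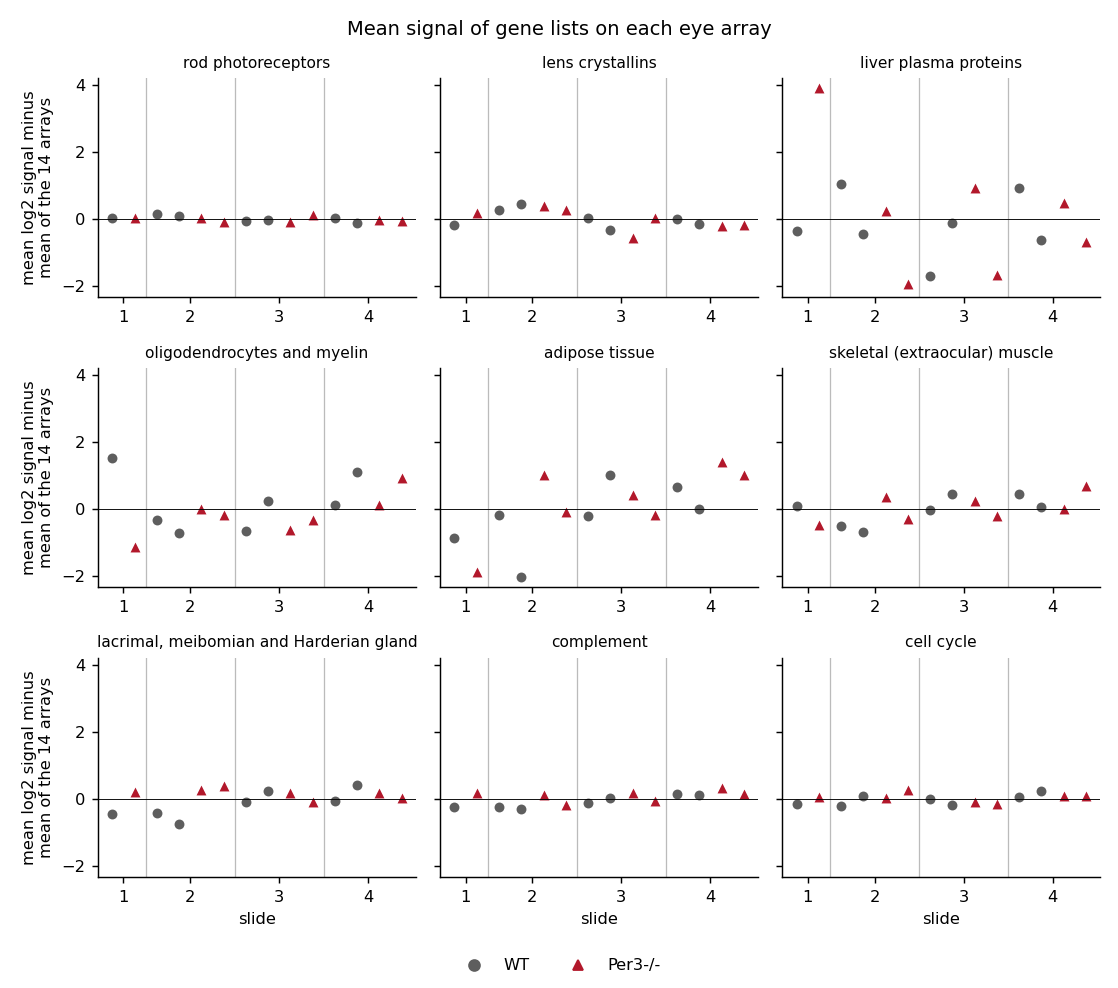
Mean log2 level of a list's measured genes on each eye array minus its mean over the 14 arrays (y axis), by slide (x axis), with circles for WT and triangles for Per3-/- mice. Rod genes stay near 0 on all slides, with a range of 0.25 over the arrays, and crystallin genes have a range of 0.99. The single Per3-/- array of slide 1 is the highest for liver plasma proteins. A WT array of slide 2 (replicate 4) is the lowest for adipose tissue.

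Genes of the lacrimal, meibomian and Harderian glands varied between slides. Of 13 measured, 3 were higher at an unadjusted p under 0.05 and 0 lower, and the median was 0.36 beside -0.00 over all measured genes. On the 4 slides the list's median was 0.33, 0.48, 0.08 and -0.04. Lyz1, a lysozyme of secretions, ran from 1.94 over 2.38 to 2.53 in WT and from 2.45 over 2.64 to 3.01 in Per3-/- eyes (difference 0.36), and the genotypes overlapped little. Lcn2, an iron-binding antimicrobial protein, was higher by 0.41 and the macrophage lysozyme gene Lyz2 by 0.28. Lactoferrin (Ltf, 0.87, interval -0.09 to 1.82) and the immunoglobulin receptor Pigr (0.92, -0.07 to 1.91) were not at an unadjusted p under 0.05, and neither was peroxidase (Lpo, -0.08). WT replicate 4 had the lowest level of the list, and without it the count stayed at 3 with a median of 0.25. Without WT replicate 8, which had the highest level, the count was 5. Of 9 antimicrobial genes Lcn2 was higher, as was Reg3g, which counted as measured through the Per3-/- arrays alone and so adds nothing to the count. Without WT replicate 8 the count was 4 against 2. In this list S100a9 was at 0.78 (-0.20 to 1.76).

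Some macrophage genes were also higher. Of 14 microglia and macrophage genes, 5 were higher at an unadjusted p under 0.05 (Cd68, C1qa, C1qb, Mrc1 and Lyz2, by 0.23 to 0.28) and 0 lower, with a median of 0.17. On the 4 slides the list's median was 0.02, 0.29, 0.20 and -0.00. Lyz2 is also counted in the gland list, and C1qa and C1qb in the complement list, so these counts are not separate. The genes that define resting microglia, P2ry12 (-0.11, interval -0.36 to 0.14), Tmem119 (0.04, -0.12 to 0.20) and Cx3cr1 (0.03, -0.28 to 0.34), were not among them. Without slide 1 the count was 3 and without WT replicate 4 it was 2, and with no slide in the model it was also 2. Of 12 surface genes of myeloid and T cells, 2 were higher, Cd74, the invariant chain (0.29), and the class II gene H2-Ab1 (0.23), and 1 without slide 1.

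Of 20 complement genes 6 were higher and 0 lower at an unadjusted p under 0.05, with a median of 0.20. The study had picked immune genes from these same arrays, so that this list is not independent evidence of its direction. C3, the component on which all pathways meet, ran from 2.04 over 2.45 to 2.72 in WT and from 2.24 over 2.94 to 3.22 in Per3-/- eyes (difference 0.45). Factor B (Cfb), of the alternative pathway, ran from 0.03 over 0.43 to 0.68 in WT and from 0.53 over 0.89 to 1.14 in Per3-/- eyes (0.44), and was higher on each slide, by 0.19 to 1.1. C1qa (0.24) and C1qb (0.23), which recognise targets, the protease gene C1s1 (0.27) and properdin (Cfp, 0.25) were the others. The inhibitor gene Cd59a (0.04) and C4b (-0.10) were not at an unadjusted p under 0.05. The count was 4 without slide 1, 3 with no slide in the model and 3 with normexp.

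All 17 chemokine and cytokine genes lay above 0, and 4 of them were higher at an unadjusted p under 0.05, with a list median of 0.20. Ccl7, a monocyte attractant, ran from -5.76 over -5.23 to -4.85 in WT and from -4.90 over -4.70 to -3.93 in Per3-/- eyes (difference 0.63), a small overlap. Cxcl13, which attracts B cells, was higher by 0.63, Il1b by 0.50 and Tnf by 0.37. The count was 1 without slide 1, 1 with no slide in the model and 1 with normexp. Of 13 interferon-induced genes, such as Ifit1 (-0.13) and Irf7 (0.00), 0 were at an unadjusted p under 0.05 in limma. The haemoglobin gene Hba-a1 was at 0.34 (-0.13 to 0.81), and the part of blood, gland or fat on the globe in these immune values was not tested.

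Cell cycle genes held differences in both directions. Of 17 measured, 6 were higher and 4 lower at an unadjusted p under 0.05. The higher ones act in mitosis: the proliferation marker Mki67 (0.35), topoisomerase Top2a (0.40), cyclin Ccnb2 (0.26), its kinase Cdk1 (0.26) and the mitotic kinases Plk1 (0.27) and Aurkb (0.34). The lower ones, Mcm2, Mcm3, Mcm5 and Mcm6, encode subunits of the MCM helicase, which is loaded at replication origins and unwinds DNA in S phase. Without slide 1, 0 of the list were higher and 4 lower in limma, and the mitotic genes then stood at 0.22 to 0.34. With no slide in the model 3 were higher and 4 lower, and with normexp 6 and 3.

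The helicase genes were followed further after their values were seen. Mcm2 (probe at chr6:88833619-88833678, mm9) ran from -0.11 over -0.04 to 0.13 in WT and from -0.40 over -0.37 to -0.11 in Per3-/- eyes, a difference of -0.29 (interval -0.43 to -0.15). Mcm6 ran from 2.72 over 2.89 to 3.12 in WT and from 2.28 over 2.64 to 2.73 in Per3-/- eyes, a difference of -0.33. For each of them 6 of 7 Per3-/- arrays lay below every WT array. Mcm3 ran from -1.91 over -1.87 to -1.54 in WT and from -2.29 over -1.98 to -1.84 in Per3-/- eyes, a difference of -0.29. Mcm5 ran from 0.02 over 0.31 to 0.48 and from -0.29 over -0.03 to 0.11, a difference of -0.32. All 4 overlapped between genotypes, with 6 of 7 Per3-/- arrays below every WT array for Mcm3 and 4 of 7 for Mcm5.

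The other subunits of the ring, Mcm4 (-0.16) and Mcm7 (-0.08), were also below 0 and not at an unadjusted p under 0.05, and Mcm10, which acts at the fork, was at -0.14. Pcna, the sliding clamp, was at -0.04 (-0.20 to 0.11), and the G1 cyclins Ccnd1 and Ccne1 at -0.13 and -0.03. Dtl was lower by 0.39, as given above. In the hypothalamus of the same genotypes Mcm2, Mcm3, Mcm5 and Mcm6 were at 0.03, -0.07, 0.03 and 0.07.

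**Figure D5:**
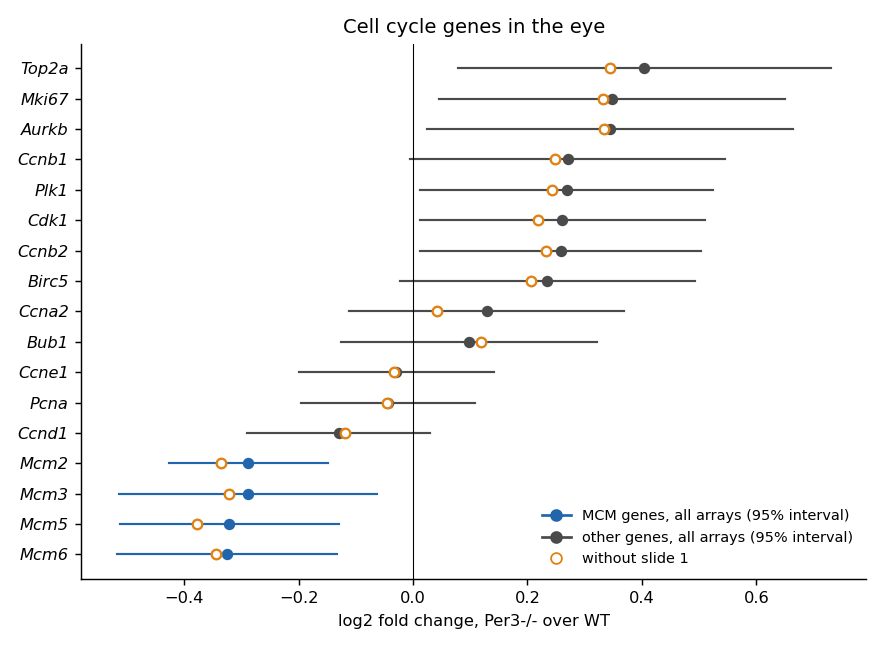
Difference between Per3-/- and WT eyes (x axis, log2) with its 95% interval for each measured cell cycle gene (filled points, blue for MCM genes), and the difference without slide 1 (open points, drawn without interval). The intervals of Mcm2, Mcm3, Mcm5 and Mcm6 lie below 0 and those of 6 mitotic genes above 0, and the open points lie on the same sides.

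MCM genes are known targets of E2F factors, which bind sites close to the start of genes of DNA replication. The 250 bases before the RefSeq start are shown for the 4 helicase genes that differed, 5' to 3' on the strand of the gene, from GRCm38.p6, with capitals where an E2F word lies. The words searched on both strands were TTTCCCGC, TTTGGCGC, TTTCGCGC and TTTGCCGC, and overlapping hits were counted. Mcm5 is at chr8:75109259-75109508 (plus strand), Mcm6 at chr1:128359706-128359955, Mcm2 at chr6:88898781-88899030 and Mcm3 at chr1:20820313-20820562 (minus strand).
Mcm5: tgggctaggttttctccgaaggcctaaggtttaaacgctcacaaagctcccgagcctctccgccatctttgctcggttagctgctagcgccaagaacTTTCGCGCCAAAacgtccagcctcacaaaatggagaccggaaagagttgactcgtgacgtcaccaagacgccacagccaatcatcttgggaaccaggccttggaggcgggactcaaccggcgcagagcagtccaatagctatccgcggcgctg
Mcm6: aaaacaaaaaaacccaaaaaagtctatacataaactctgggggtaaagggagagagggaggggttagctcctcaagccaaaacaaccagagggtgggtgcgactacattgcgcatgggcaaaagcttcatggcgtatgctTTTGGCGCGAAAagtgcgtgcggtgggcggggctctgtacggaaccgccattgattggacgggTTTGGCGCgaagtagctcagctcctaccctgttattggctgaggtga
Mcm2: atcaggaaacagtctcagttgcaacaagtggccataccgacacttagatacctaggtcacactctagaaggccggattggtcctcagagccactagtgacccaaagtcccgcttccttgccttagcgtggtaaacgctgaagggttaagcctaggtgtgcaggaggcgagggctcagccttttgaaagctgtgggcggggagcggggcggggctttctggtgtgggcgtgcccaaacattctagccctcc
Mcm3: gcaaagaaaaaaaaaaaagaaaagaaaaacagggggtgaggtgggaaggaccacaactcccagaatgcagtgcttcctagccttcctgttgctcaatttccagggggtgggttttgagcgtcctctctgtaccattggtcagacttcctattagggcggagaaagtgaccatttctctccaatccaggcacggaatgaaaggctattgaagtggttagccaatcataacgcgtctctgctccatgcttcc
The Mcm5 window held 2 hits, overlapping on opposite strands, and the Mcm6 window 3, while the Mcm2 and Mcm3 windows held none of these letters. Of 32851 RefSeq promoters of the same length, 1.86% held at least 1. Hits also lay in the windows of Dtl (1), Mcm7 (1, in 1 of its 2 windows) and Cdk1 (1), of which Cdk1 was higher in Per3-/- eyes by 0.26. No hit lay in the windows of the cell cycle genes Pcna, Ccne1, Mki67, Top2a, Ccnb1, Ccnb2, Plk1, Bub1 and Birc5. The windows shown were chosen after the values of their genes were seen, and no enrichment was tested.

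Among the clock genes the clearest difference lay in an output. Of 15 core clock genes, 1 was lower at an unadjusted p under 0.05 and 0 higher, with a median of -0.04, and of 12 output genes 1 was lower and 1 higher. Dbp, the PAR bZIP factor driven directly by CLOCK and BMAL1 (probe at chr7:52965265-52965324, mm9), ran from 4.60 over 4.86 to 5.28 in WT and from 4.33 over 4.61 to 4.81 in Per3-/- eyes. The genotypes overlapped, with 3 of 7 Per3-/- arrays below every WT array. The difference was -0.34 (interval -0.50 to -0.18, adjusted p = 0.926 in limma), and on the slides -0.47, -0.50, -0.28 and -0.17. Nfil3, a repressor that binds the same sites as Dbp, ran from 0.93 over 1.14 to 1.34 in WT and from 1.06 over 1.31 to 1.63 in Per3-/- eyes (difference 0.23), and with normexp Nfil3 was no longer at an unadjusted p under 0.05.

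The paralogues of Per3 and the loop around them differed little. Per1 was at -0.09 (interval -0.23 to 0.06) and Per2 at -0.22 (-0.53 to 0.09). The repressor genes Nr1d1 and Nr1d2 were at -0.11 and -0.20, Cry1 at 0.05 and Arntl, which encodes BMAL1, at 0.11. The other PAR bZIP genes Tef and Hlf were at -0.09 and -0.04, and Ciart, a CLOCK repressor, was at -0.23 (-0.51 to 0.05). Rorb, a nuclear receptor of retina and clock, was lower by 0.26, of which slide 4 gave -0.66 and slide 1 gave 0.08, and it was not at an unadjusted p under 0.05 without WT replicate 4, without WT replicate 8 or with no slide in the model.

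The mice were in light when sampled, and 0 of 17 immediate early genes, which answer neural activity within minutes, were at an unadjusted p under 0.05 in limma, against 1 lower without slide 1 or WT replicate 4 and 2 lower with array weights. Fos was at -0.12 (interval -0.37 to 0.12), Egr1 at -0.40 (-0.81 to 0.01) and Npas4 at -0.28 (-0.58 to 0.02). Egr1 ran from 0.90 over 1.17 to 1.48 in WT and from -0.08 over 0.95 to 1.67 in Per3-/- eyes, so that the Per3-/- arrays spanned the WT range. Of 10 genes of melatonin and dopamine, 1 was lower, Tph2, a tryptophan hydroxylase (-0.20), with -4.08 over -3.81 to -3.71 in WT and -4.50 over -4.04 to -3.85 in Per3-/- eyes, and with normexp it was at 0.13, the opposite sign. The dopamine receptor genes Drd1 (0.07), Drd2 (0.02) and Drd4 (-0.13) were not at an unadjusted p under 0.05.

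Few metabolic and housekeeping genes differed. Of 28 oxidative phosphorylation genes and 28 ribosomal protein genes, 0 were at an unadjusted p under 0.05 in limma, the medians were 0.04 and 0.00, and all intervals of the ribosomal list lay within 1.5-fold. The 19 genes of cholesterol synthesis also held 0, with a median of -0.06 and 15 of 19 below 0. Cytochrome P450 genes, which the study also named from these arrays so that the list is not independent evidence, held 2 of 19 that were higher, Cyp1a1 (1.02, interval 0.12 to 1.91), induced through the aryl hydrocarbon receptor, and Cyp1b1 (0.25, 0.08 to 0.42), and 0 with no slide in the model. Without slide 1 the count was 2 higher and 1 lower. Cyp1a1 was at -0.51 on slide 1 and 2.63 on slide 2. Its probe was well above background on 5 WT and 7 Per3-/- arrays. It thus counted as measured through the Per3-/- arrays alone and adds nothing to the count. Of the unfolded protein genes 1 was higher, Xbp1 (0.23), a transcription factor of that response.

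Beside these eye values the hypothalamus of the same mice showed differences of a similar small size. Over the 29065 measured eye probes the median absolute difference was 0.06, and 2.49% were at an unadjusted p under 0.05 in limma. The hypothalamus fit had 16 arrays against 14 in the eye, and its median standard error was 0.06 against 0.09. Over 27696 probes measured in the hypothalamus the median absolute difference was 0.05, and 3.91% of them were at an unadjusted p under 0.05. Of all 40968 probes, measured or not, 5 passed the adjusted test there. The genotype effect was then compared between tissues in 1 limma model with the mouse as a random block. Arrays of equal genotype and replicate number were taken as the same mouse, and the estimated correlation within a mouse was 0.053. At an adjusted p of 0.05, 0 of 40968 probes differed (0.0%), with a lowest adjusted p of 0.129, and 1357 (3.31%) differed at an unadjusted p under 0.05. Dbp was lower in both tissues, by 0.34 in the eye and 0.25 in the hypothalamus (unadjusted p of the difference between tissues, 0.42). Trim61 was at -0.85 and -0.91, but its probe was well above background on 0 hypothalamus arrays. Cfb was at 0.44 and 0.49. Reg3g was at 2.86 and -0.27 (unadjusted p in limma, 0.0016) and Ak7 at -0.83 and 0.13 (0.0013). Mcm6 was at -0.33 and 0.07 (0.00058) and Mcm2 at -0.29 and 0.03 (0.0031). None of these passed the adjustment over all probes. They were picked by their eye differences, which also enter the difference between tissues, so their p are not independent evidence. The Reg3g probe was well above background on 1 WT hypothalamus array.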

How the data were processed

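Whole-eye RNA of single mice was hybridised with 1 label (Cy3) to arrays of 60-mer probes. The authors extracted spots with Agilent's software. Their deposited processed intensity is, by the headers, background-subtracted and not scaled between arrays. The table of log2 values that the authors deposited matched log2 intensity relative to the array's 75th percentile, centred per probe (column medians -0.073 to 0.080), and served as an alternative. By the flags deposited per spot, 957 uneven or outlying eye spots were dropped.

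Here log2 processed intensity minus the array's 75th percentile was fitted per probe with limma 3.58.1 (R 4.3.3), with genotype and slide (4 slides of 2 to 4 eye arrays), and adjusted by Benjamini-Hochberg over 41174 probes. Names came from RefSeq by accession (27021 probes), symbol (5016) or synonym (794), otherwise from the array files (8343), and mm9 positions from the hypothalamus files (781 probes have none). Where a gene had several probes, the measured probe of highest mean was used. Named were the probes past the adjusted threshold, the 10 measured probes with a gene name of lowest p and of largest fold in each direction, any past 2-fold with no overlap, and of each list the first 2 measured members and that of lowest p. Members and lists were chosen with earlier results of these data known. Other genes named were chosen after their values were seen, and a few that the rule names are not reported here. Alternatives were another or no block, quantile normalization, normexp (offset 50), a filter, array weights, the methods' test and leaving out each array. The fit was tested on simulated data. Python 3.11.15, numpy 2.4.6, pandas 2.3.3 and scipy 1.17.1 were used. The number of arrays limits the precision.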

Additional observations from a re-analysis of the deposited data

Results flagged for a closer look

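In 408 groups of 7 arrays, 16 (3.92%) held an array far from the other 6, with a gap to its neighbour above the usual limit for 7 values, and chance alone gives about 1 in 20. The 16 values follow, as log2 levels relative to the array's 75th percentile.

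Slide 1 gave 3 of the single genes and 1 of the lists. Per3-/- replicate 2 was far from the other Per3-/- arrays for Cyp1b1 (-1.072), for the liver apolipoprotein Apoa1 (-0.07422), for the fat hormone Adipoq (-1.678) and for the mean of the endothelium list (-0.2966). WT replicate 4 was far from the other WT arrays for Lcn2 (-3.304), Xbp1 (1.134) and the mean of the endothelium list (-0.2911). WT replicate 8 was far from them for Col19a1 (-3.225), for a probe of St6galnac5 (-3.224), for Rorb (-0.3831) and for the means of the corneal and conjunctival epithelium list (3.764) and the unfolded protein list (1.812). Per3-/- replicate 3 stood off for Lpo (2.539) and the T cell gene Cd3e (-0.977), Per3-/- replicate 4 for the cholesterol list (1.946) and Per3-/- replicate 5 for the ribosomal list (6.094).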

How the results depend on the processing

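The single adjusted call became 0 with the replicate block, quantile normalization, normexp, only probes well above background and the methods' t-test, which gave 790 probes at their unadjusted threshold. The 1125 probes at an unadjusted p under 0.05 became 700 with no slide block and 392 with normexp, and the 41 list genes became 26 with no slide block. With normexp the median of all measured probes moved from -0.00 to 0.07, 64.5% of the probes at an unadjusted p under 0.05 were higher against 48.8%, 4 measured probes were past 2-fold, and the sign turned, among genes at an unadjusted p under 0.05, for Nobox (0.26), Trim61 (0.022), Vmn2r8 (0.061), Lpar2 (0.069), Tph2 (0.13) and 9330169L03Rik (0.22), and among others for Tyr (0.24). The cause was not tested. With the replicate block 19 measured probes, against 11, were past 2-fold and 1510 were at an unadjusted p under 0.05. The deviations of 1 number's 2 arrays correlated at 0.32 to 0.68 for 5 of 6 numbers, each the best match of its own partner. For number 6 the correlation was 0.035, and its partner was not the best match. The numbers are nested in the slides and the slide was not removed from these deviations. The check therefore cannot tell a pairing from a shared slide, and the slide was kept as the block.

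Leaving out 1 array gave 0 to 2 adjusted calls, 854 to 1781 probes at an unadjusted p under 0.05 (1781 without Per3-/- replicate 5), 26 to 53 list genes (26 without WT replicate 3) and 8 to 28 measured probes past 2-fold. The adjusted calls were 0 without WT replicate 5 and 2 without slide 1, Per3-/- replicate 4 or WT replicate 6. The 2-fold count was 28 without WT replicate 8, 26 without WT replicate 6, 24 and 22 without Per3-/- replicates 6 and 8, and 19 without slide 1 or without Per3-/- replicate 7. The median absolute difference was 0.05 to 0.07 in these fits and 0.11 with normexp. The alternatives without slide 1 and without WT replicate 4 for list counts were chosen after seeing the data.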
